A study of Mus musculus with 4 samples.

Results

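The 10 genes described here encode the cytosolic heat shock chaperones of the mouse: Hsp90aa1 and Hsp90ab1, Hspa8, Hspa1a and Hspa1b, Hsph1, Hspa4 and Hspa4l, and Dnaja1 and Dnajb1. They were found by gene symbol, and each symbol matched 1 of the 52189 identifiers of the deposited table. From general knowledge of the family they were divided into 5 stress-induced genes (Hsp90aa1, Hsph1, Dnajb1, Hspa1a and Hspa1b) and 5 constitutive genes (Hspa8, Hsp90ab1, Hspa4, Hspa4l and Dnaja1). The placing of Dnaja1 and Hspa4l is the least clear cut. The study asked which RNAs associate with SAFB (scaffold attachment factor B), an RNA- and DNA-binding protein of the nuclear matrix, in AML12 cells, a mouse hepatocyte line derived from animals with a TGF-alpha transgene. The SAFB RIP group holds 2 libraries of RNA precipitated with an antibody against SAFB, and the IgG RIP group holds 2 libraries precipitated with control IgG. All 4 libraries came from cells grown with 10% serum and 0.1 µM dexamethasone. No heat treatment and no drug other than dexamethasone is named in the labels. All 4 were made from nuclei of cells crosslinked by ultraviolet light. The labels do not say whether the replicates were separate cultures, so p-values measure the spread between these libraries, which may be technical.

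Cytosolic HSP70 proteins bind short hydrophobic stretches of unfolded clients in cycles of ATP binding and hydrolysis. J-domain (HSP40) proteins deliver the client and start hydrolysis, HSP110 proteins exchange the nucleotide, and HSP90 takes over clients such as steroid receptors and kinases for the last steps of maturation. The constitutive genes are transcribed in unstressed cells, whereas the stress-induced genes are switched on by heat shock factor 1 when proteins misfold. SAFB has links with this response in human cells: it was described as a protein that binds the promoter of the HSP27 gene, and it gathers in nuclear stress bodies after heat shock.

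Values are TPM as deposited, which are scaled for transcript length and to the same total in each library. TPM keep no read depth, so the depth behind a value is unknown. They are also relative, so more of an RNA in a precipitate and less of the other RNAs cannot be told apart. The hepatocyte label was borne out by the markers Alb, Ttr, Trf, Apoa1, Apob, Hnf4a and Cebpa, whose summed level was 4564 and 4723 TPM in the SAFB RIP, against 5137 and 5570 TPM in the IgG RIP. The fibroblast or stellate markers Col1a1, Col3a1 and Pdgfrb summed to at most 1.76 TPM in any library, with Col3a1 and Pdgfrb listed at 0. The endothelial markers Pecam1 and Cdh5 summed to at most 0.771 TPM. Of the leukocyte markers, Ptprc reached at most 0.276 TPM, while Cd68 stood at 31.5 and 21.3 TPM in the SAFB RIP and at 12.7 and 6.31 TPM in the IgG RIP. Its part in the results was not tested. The nuclear RNA Malat1 held 50824 and 45759 TPM in the SAFB RIP and 19059 and 25416 TPM in the IgG RIP. The nuclear RNA Neat1 went the other way, with 420 and 445 TPM in the SAFB RIP and 527 and 544 TPM in the IgG RIP. Neither passed the threshold used below (limma adjusted p = 0.0740 for Malat1 and 0.0609 for Neat1). The SAFB libraries differed less from each other than the IgG libraries did, with a median absolute log2 difference of 0.166 between SAFB libraries and 0.370 between IgG libraries.

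Sequence was examined first, because several of these RNAs are hard to tell apart from their copies. The coding sequences of Hspa1a and Hspa1b were identical at 1916 of 1926 aligned positions (99.5%), and 62.3% of the 50-base stretches of the Hspa1b transcript also occurred in Hspa1a. Their shares of reads therefore depend on how the authors' tools placed ambiguous reads, which is not given in the sources used here. The coding sequences of Hsp90aa1 and Hsp90ab1 matched at 75.9% of aligned positions and shared no 50-base stretch. For the HSP90 and HSP70 genes, the stretches below are the 90 coding bases of each gene with the most matches to GAAGA, in capitals, a purine-rich pentamer of the kind reported at SAFB crosslinking sites in human cells. They show the contrast between the HSP90 linker and the HSP70 frame, and how closely Hspa1a follows Hspa1b. They were read from GENCODE release M21 transcripts (build mm10) in the sense direction, 5′ to 3′. Positions count from the A of the start codon.
Hsp90aa1, coding bases 754 to 843: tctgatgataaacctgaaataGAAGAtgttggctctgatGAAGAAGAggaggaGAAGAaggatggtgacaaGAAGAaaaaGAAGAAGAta
Hsp90ab1, coding bases 688 to 777: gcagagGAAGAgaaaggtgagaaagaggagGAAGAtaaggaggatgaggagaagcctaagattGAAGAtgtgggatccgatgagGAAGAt
Hspa8, coding bases 1621 to 1710: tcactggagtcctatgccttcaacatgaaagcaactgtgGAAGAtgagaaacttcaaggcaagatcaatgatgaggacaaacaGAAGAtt
Hspa1a, coding bases 1618 to 1707: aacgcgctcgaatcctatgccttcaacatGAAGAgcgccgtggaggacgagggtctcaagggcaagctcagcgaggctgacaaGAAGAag
Hspa1b, coding bases 1618 to 1707: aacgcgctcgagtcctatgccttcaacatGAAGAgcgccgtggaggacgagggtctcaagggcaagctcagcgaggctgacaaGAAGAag

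The Hsp90aa1 stretch holds 7 matches, some of them overlapping, and the Hsp90ab1 stretch 4. In both genes it encodes part of the charged linker, a run of glutamate and lysine codons between the N-terminal and middle domains of HSP90. The stretches of Hspa8, Hspa1a and Hspa1b lie at nearly the same place in the HSP70 coding frame and hold 2 matches each. Of the genes not shown, the richest such stretch held 5 matches in Hspa4, 4 in Hspa4l, 3 in Dnaja1 and in Dnajb1 and 2 in Hsph1.

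Of the 10 genes, 7 were higher in the SAFB RIP and 0 were lower (limma, Benjamini-Hochberg adjusted p under 0.05), among 16647 genes tested of which 29.8% were higher and 8.3% lower. Hsp90aa1, Hsp90ab1, Hspa8, Hsph1, Hspa4, Hspa4l and Dnaja1 rose, by 1.95-fold to 3.35-fold in mean TPM. Dnajb1, Hspa1a and Hspa1b did not pass. All 10 reached 1 TPM or more in all 4 libraries, so none entered the test through 1 group alone. The median log2 fold change of the 10 genes was 1.21, beside 0.46 for all genes tested. With each library centred on its median, which removes that overall shift, 6 genes were higher and 2 were lower, beside 16.4% and 17.6% of all genes. The calls needed both SAFB libraries. With either SAFB library left out, the spread was estimated from the IgG pair alone. All calls among the 10 genes were then lost, as were most calls over all genes. The log2 fold changes of the 7 genes were 0.96 to 1.93 in those fits, with adjusted p between 0.0964 and 0.214. The SAFB values exceeded both IgG values in 7 of the 10 genes and fell short of both in 2, as in 52.3% and 21.4% of all genes tested.

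**Figure D1:**
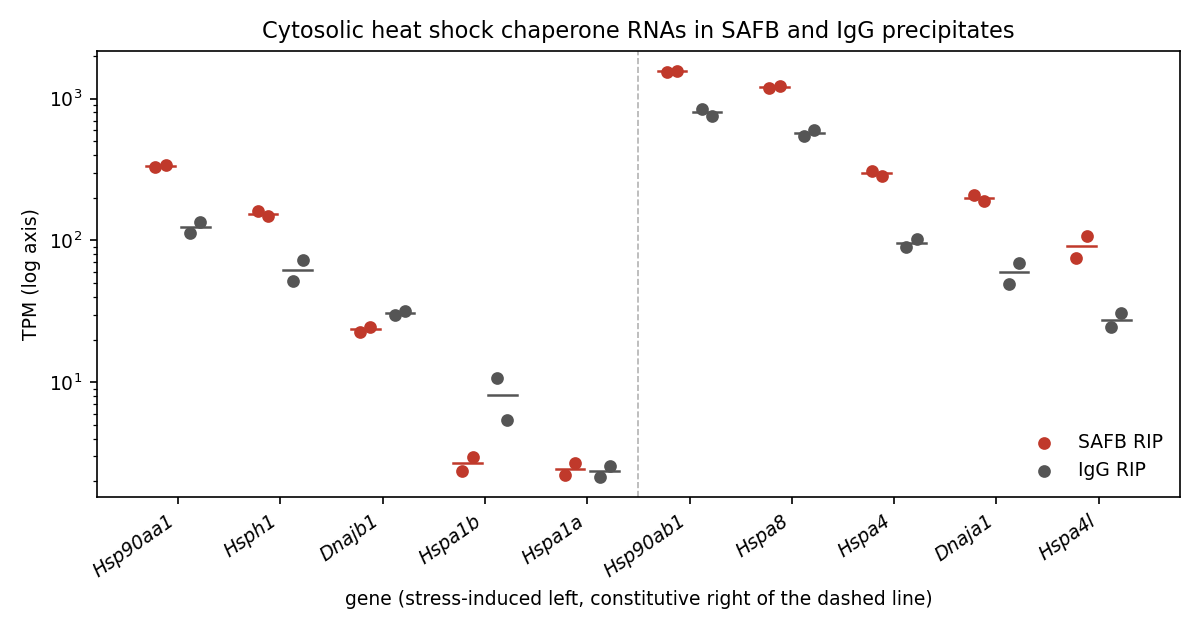
TPM of the 10 chaperone genes (log axis) in each library, with SAFB RIP in red to the left of IgG RIP in grey and lines at the means of 2 libraries. Both SAFB libraries lie above both IgG libraries in 7 genes, below them in Dnajb1 and Hspa1b, and among them in Hspa1a.

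HSP90 is the most abundant cytosolic chaperone, and its constitutive form, encoded by Hsp90ab1 (chromosome 17, 45567775 to 45573271, minus strand), was listed highest of the 10 RNAs in both groups, though below Hspa8 in all 4 libraries if the pseudogene copies of Hspa8 are counted with it. Hsp90ab1 had 1548 and 1565 TPM in the SAFB RIP, against 850.0 and 749 TPM in the IgG RIP. The groups did not overlap, and the log2 fold change of log2(TPM + 1) was 0.96 ± 0.12 (SE, n = 2 libraries per group; limma adjusted p = 0.00850). After median centring it stood at 0.50 ± 0.14 and missed the threshold (limma adjusted p = 0.0502). The stress-induced form Hsp90aa1 (chromosome 12, 110690605 to 110702728, minus strand) had 332 and 338 TPM in the SAFB RIP, against 112 and 135 TPM in the IgG RIP. Its log2 fold change of 1.44 ± 0.13 passed (limma adjusted p = 0.00568), also after median centring, at 0.98 ± 0.12. Of its 50-base stretches 58.5% also occurred in other annotated transcripts, all of pseudogenes, and with 3 such pseudogenes added it stood at 1.46. The ratio of Hsp90aa1 to Hsp90ab1 TPM was 0.214 and 0.216 in the SAFB RIP and 0.132 and 0.181 in the IgG RIP. Thus, in TPM as deposited, the inducible form made up a larger part of the pair in both SAFB libraries. With a GC trend removed, an alternative described below, Hsp90aa1 stood at 1.13 and Hsp90ab1 at 1.08. With so few libraries the smallest two-sided p of an exact permutation test is 0.33, so ratios were left without a test.

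Hspa8 (chromosome 9, 40800984 to 40810087, plus strand) encodes HSC70, the constitutive HSP70 that also uncoats clathrin vesicles. Hspa8 had 1194 and 1229 TPM in the SAFB RIP, against 546 and 596 TPM in the IgG RIP, and rose by 1.08 ± 0.10 on the log2 scale (limma adjusted p = 0.00605). After median centring it stood at 0.62 ± 0.11 and still passed (limma adjusted p = 0.0154). Its level depends on where shared reads were placed: 73.2% of the 50-base stretches of the Hspa8 transcript occurred in transcripts of other annotated genes, 10 of them pseudogenes. The processed pseudogene Gm15459 (chromosome 5, 5781615 to 5783555), singled out after its values were seen, carries 70.0% of the stretches of Hspa8 and was listed at 1101 and 958 TPM in the SAFB RIP and at 668 and 701 TPM in the IgG RIP. Adding the 9 pseudogenes that carry at least 1% of its stretches to Hspa8 gave 2329 and 2218 TPM in the SAFB RIP, against 1223 and 1309 TPM in the IgG RIP. The log2 fold change of that sum was 0.84 (limma adjusted p = 0.0107), so Hspa8 passed counted alone or with its copies.

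Neither stress-induced HSP70 gene was higher in the SAFB RIP. Hspa1b (chromosome 17, 34956436 to 34959238, minus strand) had 2.37 and 2.98 TPM in the SAFB RIP, against 10.8 and 5.38 TPM in the IgG RIP. Its groups did not overlap, yet its log2 fold change of -1.24 ± 0.44 missed the threshold as deposited (limma adjusted p = 0.0855) and passed as lower after median centring, at -1.70 ± 0.46 (limma adjusted p = 0.0445). The IgG values lie far apart. Hspa1b stood at -1.69 without IgG RIP replicate 2, the lower of them, and at -0.80 without IgG RIP replicate 1. In those fits the spread came from the SAFB pair alone. Hspa1a (chromosome 17, 34969190 to 34972156, minus strand) had 2.21 and 2.69 TPM in the SAFB RIP, against 2.16 and 2.58 TPM in the IgG RIP, a log2 fold change of 0.03 ± 0.31 (limma adjusted p = 0.943). Its 4 values are interleaved. Summed, because the near-identical genes cannot be separated with confidence, Hspa1a and Hspa1b had 4.59 and 5.66 TPM in the SAFB RIP and 13.0 and 7.96 TPM in the IgG RIP. Set against Hspa8, that sum came to 0.384% and 0.461% in the SAFB RIP and to 2.37% and 1.34% in the IgG RIP. Gm20481, annotated on the opposite strand of Hspa1a, was listed at 0 in every library.

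The 3 HSP110 genes, whose products act as nucleotide exchange factors for HSP70, all rose. Hspa4 (chromosome 11, 53259814 to 53300457, minus strand) had 308 and 286 TPM in the SAFB RIP, against 90.2 and 102 TPM in the IgG RIP, and a log2 fold change of 1.62 ± 0.11 (limma adjusted p = 0.00464). Hspa4l (chromosome 3, 40744495 to 40796103, plus strand) had 75.1 and 107 TPM in the SAFB RIP, against 24.6 and 30.7 TPM in the IgG RIP, and a log2 fold change of 1.67 ± 0.23 (limma adjusted p = 0.0110). Both SAFB values of Hspa4l exceed both IgG values, although the SAFB libraries differ from each other more than for the other HSP110 genes. The stress-induced Hsph1 (chromosome 5, 149614287 to 149636376, minus strand) had 161 and 148 TPM in the SAFB RIP, against 51.4 and 72.3 TPM in the IgG RIP, and a log2 fold change of 1.33 ± 0.19 (limma adjusted p = 0.0119). After median centring all 3 still passed, at 1.16 for Hspa4, 1.21 for Hspa4l and 0.87 for Hsph1. No 50-base stretch of Hspa4 or Hsph1 occurred in another annotated transcript, so these values do not rest on shared sequence.

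The J-domain genes parted. Dnaja1 (chromosome 4, 40722150 to 40737149, plus strand), which encodes the farnesylated class A cochaperone of HSC70, had 210 and 189 TPM in the SAFB RIP, against 49.6 and 69.6 TPM in the IgG RIP. Its log2 fold change of 1.74 ± 0.19 passed (limma adjusted p = 0.00759), and stood at 1.28 ± 0.18 after median centring. It was the largest of the 10 with all 4 libraries, but Hspa4l stood higher without SAFB RIP replicate 1 (1.93 against 1.67), and without IgG RIP replicate 1 Hspa4 (1.53), Hspa4l (1.52) and Dnaja1 (1.503) lay together. Dnajb1 (chromosome 8, 83608193 to 83612653, plus strand), which encodes the heat-inducible HSP40, had 22.6 and 24.5 TPM in the SAFB RIP, against 29.8 and 31.9 TPM in the IgG RIP. Both SAFB values are below both IgG values, but the log2 fold change of -0.38 ± 0.18 did not pass as deposited (limma adjusted p = 0.157). It passed as lower after median centring, at -0.84 ± 0.18 (limma adjusted p = 0.0257). The ratio of Dnajb1 to Dnaja1 TPM was accordingly 0.108 and 0.130 in the SAFB RIP, against 0.602 and 0.457 in the IgG RIP. The processed pseudogene Gm15542 (chromosome 7, 140890887 to 140892080), singled out after its values were seen, carries 15.7% of the 50-base stretches of Dnaja1. It was listed at 47.7 and 29.3 TPM in the SAFB RIP and at 2.50 and 1.22 TPM in the IgG RIP. With 3 such pseudogenes added, Dnaja1 stood at 1.95 (limma adjusted p = 0.00611). Smu1 (53.0 and 52.4 TPM in the SAFB RIP, 40.3 and 56.3 TPM in the IgG RIP) and Gm6297 (7.01 and 6.91 TPM in the SAFB RIP, 3.14 and 2.76 TPM in the IgG RIP) overlap exons of Dnaja1 on the opposite strand. Mir207 overlaps it on the same strand and stayed under 1 TPM. Since the use of strand in counting is not given, part of these values may be shared.

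**Figure D2:**
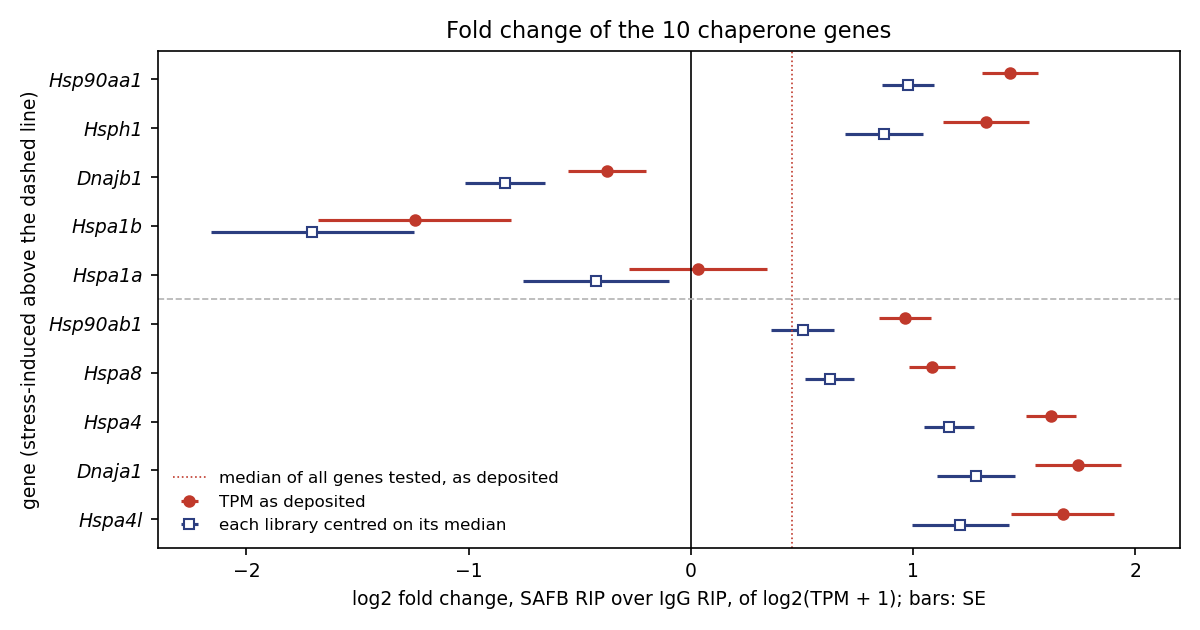
Log2 fold change of each gene, SAFB RIP over IgG RIP, with bars of 1 SE, for TPM as deposited (red) and after centring each library on its median (blue squares). The dotted line marks the median of all genes tested as deposited, 0.46, and the red points of Dnajb1, Hspa1b and Hspa1a lie to its left; after centring those 3 genes lie below 0.

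Class did not separate the genes cleanly. Of the 5 stress-induced genes, 2 rose and 3 did not pass. Of the 5 constitutive genes, 5 rose, beside 29.8% higher and 8.3% lower among all genes tested. After median centring 2 stress-induced genes were higher and 2 lower, and 4 constitutive genes were higher and 0 lower. Among all genes tested 16.4% were higher and 17.6% lower in that fit. Log2 fold changes ran from -1.24 to 1.44 among stress-induced genes, with a median of 0.03, and from 0.96 to 1.74 among constitutive genes, with a median of 1.62. As deposited, the stress-induced Hsp90aa1 and Hsph1 rose by more than the constitutive Hspa8 and Hsp90ab1. With a GC trend removed, an alternative described below, Hspa8 stood at 1.22, above Hsp90aa1 and Hsph1 at 1.13 each, and Hsp90ab1 stood at 1.08. The median log2(TPM + 1) of the stress-induced genes minus that of the constitutive genes was -3.71 and -3.49 in the SAFB libraries, against -1.56 and -1.65 in the IgG libraries. The groups do not overlap in this measure, which in every library is the distance between just 2 genes, Dnajb1 and Hspa4, the middle members of their classes. The genes of a class are not replicates, and the classes were given no test. In summed TPM, which the abundant genes dominate, the stress-induced genes held 520 and 517 TPM in the SAFB RIP and 206 and 247 TPM in the IgG RIP, and the constitutive genes 3335 and 3376 TPM in the SAFB RIP and 1560 and 1547 TPM in the IgG RIP. As a share of the family, the stress-induced genes made up 13.5% and 13.3% in the SAFB RIP and 11.7% and 13.8% in the IgG RIP, so the groups overlap there. All 10 genes together took 0.386% and 0.390% of the TPM in the SAFB RIP, against 0.177% and 0.180% in the IgG RIP.

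The order of levels as listed was much the same in both groups. Hsp90ab1, Hspa8, Hsp90aa1 and Hspa4 held ranks 1 to 4 in the SAFB RIP and in the IgG RIP, and Hspa1b and Hspa1a ranks 9 and 10. With pseudogene copies added, Hspa8 stood above Hsp90ab1 in every library, so that the first 2 ranks depend on where shared reads were placed. In the SAFB RIP Dnaja1 came before Hsph1, and Hspa4l before Dnajb1. In the IgG RIP both pairs stood the other way round. Among neighbours in this order, the values of Hspa1b and Hspa1a overlapped in the SAFB RIP. In the IgG RIP those of Hsph1 and Dnaja1 overlapped, as did those of Dnajb1 and Hspa4l. All other neighbours were separated in both libraries of the group.

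Gene structure and base composition differed between the genes that rose and those that did not, and were set beside all 11961 protein-coding genes tested. The 7 genes that rose have 9 to 19 exons in their principal transcript, Dnajb1 has 3, and Hspa1a and Hspa1b are single-exon genes. Exon number did not track recovery in general: 28.0% of 371 single-exon genes were higher in the SAFB RIP, against 30.3% of 6266 genes with 9 or more exons. Transcript GC content did. Of 3078 genes with at least 55% GC, 7.70% were higher and 24.6% lower, with a median log2 fold change of -0.32. Of 2685 genes under 45% GC, 47.6% were higher and 1.30% lower, with a median of 0.92. Hspa1a and Hspa1b, at 58.9% and 58.1%, are the only 2 of the 10 genes above 55%. Hspa4l (39.5%), Dnaja1 (41.2%) and Hsp90aa1 (43.7%) lie under 45%. Dnajb1 (52.7%) shares the range from 50% to 55% with Hspa8 (51.2%) and Hsp90ab1 (51.0%), in which 21.1% of 3150 genes were higher. Once a trend with GC was removed from each library, an alternative chosen after the data had been seen, the same 7 genes were called higher and 0 lower. Over the 16611 genes tested in that fit, 5488 were higher and 612 lower. Hspa1a then stood at 0.92 (limma adjusted p = 0.0968), Hspa1b at -0.40 (limma adjusted p = 0.465) and Dnajb1 at -0.07 (limma adjusted p = 0.774). These values are to be read beside 0.57, the midpoint of the genes tested in that fit. Hspa1b and Dnajb1 still lay below it, and Hspa1a lay above it. The difference between class medians, stress-induced minus constitutive, was -0.47 with the trend removed and -1.59 as deposited. The part of GC content in these differences was not tested beyond this alternative.

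**Figure D3:**
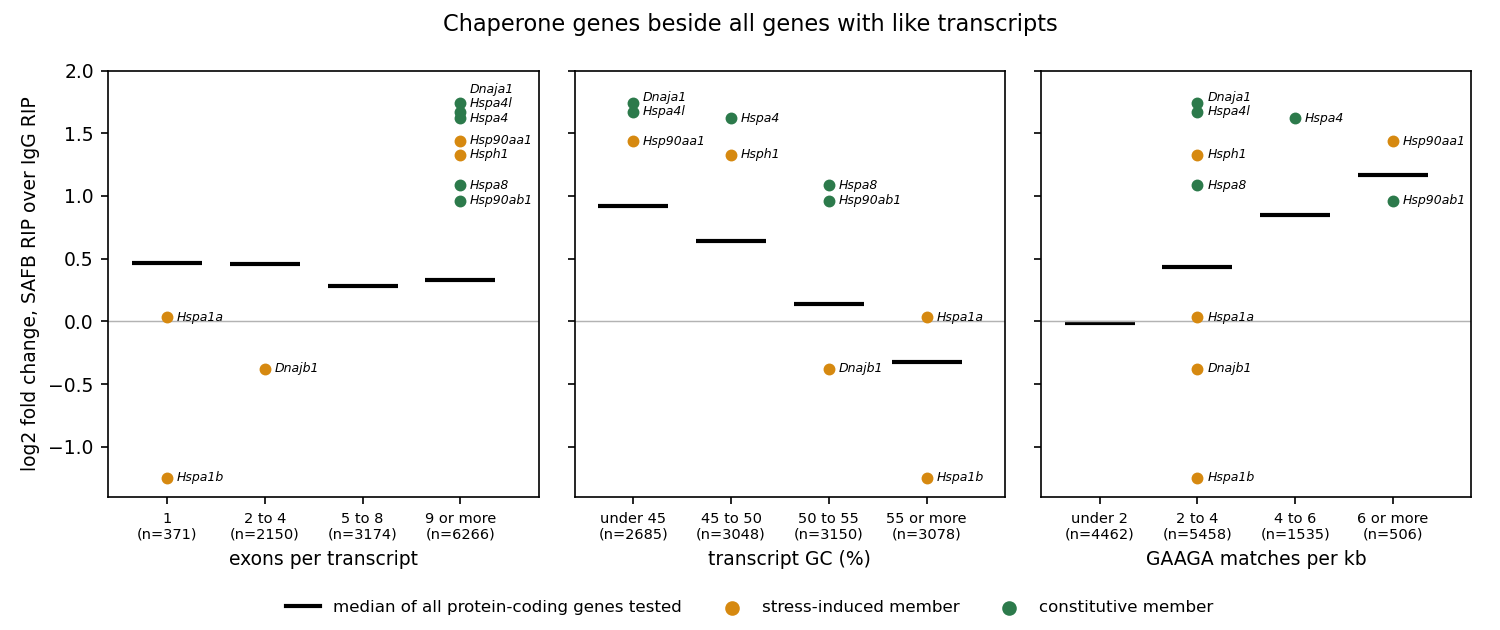
Log2 fold change, SAFB RIP over IgG RIP, of the 10 chaperone genes (orange stress-induced, green constitutive) within bins of exon number, transcript GC and GAAGA matches per kb, with black bars at the median of all protein-coding genes tested in that bin (n below each). The medians fall from 0.92 under 45% GC to -0.32 at 55% GC or more and rise with GAAGA density, while those of the exon bins lie between 0.28 and 0.47.

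The pentamer GAAGA was counted on the sense strand of 1 principal transcript per gene, with overlapping matches counted separately. Hsp90aa1 held 27 matches, or 8.23 per kb, and Hsp90ab1 20, or 7.94 per kb. Only 1.30% of all tested protein-coding transcripts reached the density of Hsp90ab1, and their median was 2.41 per kb. At least 1 match occurred in 97.6% of them, so presence alone distinguishes nothing. Hspa4 held 4.33 per kb, and the other 7 genes, Hspa1a and Hspa1b among them, held 2.02 to 2.89. These are densities over whole transcripts, UTRs included. Over coding sequence alone Hsp90aa1 held 11.4 matches per kb, Hsp90ab1 7.83, Hspa4 7.52, Hspa4l 7.16, Dnaja1 6.72, Dnajb1 5.88, Hsph1 4.27, Hspa8 3.10, and Hspa1a and Hspa1b 2.08 each. Of 506 genes with 6 or more matches per kb, 57.7% were higher in the SAFB RIP, against 15.3% of 4462 genes with fewer than 2. The transcript density does not order these 10 genes: Dnaja1, which rose, has 2.67 per kb, as has Dnajb1, which did not pass. The density of GAAGA and the GC content were not separated here. A match describes the sequence and is not a binding site.

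Hspa8 is also the host of 3 box C/D small nucleolar RNA genes of the U14 family, which guides methylation and processing of 18S ribosomal RNA. Snord14c lies in intron 5, Snord14d in intron 6 and Snord14e in intron 8 of the principal transcript, on the same strand (chromosome 9, 40803583 to 40803668, 40803995 to 40804080 and 40804748 to 40804837). Their sequences are shown, from GENCODE release M21 (build mm10, plus strand), with the C box (GTGATGA or ATGATGA) and the D box (CTGA) in capitals, because their values went different ways although the RNAs are close copies.
Snord14c: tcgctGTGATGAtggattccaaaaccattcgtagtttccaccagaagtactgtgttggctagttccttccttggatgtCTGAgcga
Snord14d: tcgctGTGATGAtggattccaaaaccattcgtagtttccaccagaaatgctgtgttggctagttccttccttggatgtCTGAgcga
Snord14e: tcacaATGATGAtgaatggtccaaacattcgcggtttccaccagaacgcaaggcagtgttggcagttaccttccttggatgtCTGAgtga

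Snord14c and Snord14d were identical at 84 of 86 positions, and each matched Snord14e at 79.6% of aligned positions. Snord14d had 0.0339 and 0.0763 TPM in the SAFB RIP, against 57.3 and 30.5 TPM in the IgG RIP. It fell by 5.34 on the log2 scale (SE 0.43, limma adjusted p = 0.00507). Only its IgG values reached 1 TPM, so Snord14d entered the test through the IgG group alone, and its call adds no separate support. With SAFB values this near 0 the size follows the pseudocount, at -8.09 with 0.1 and -3.22 with 5, and both passed. Without either SAFB library it stood at -5.37 or -5.32 and did not pass. Snord14e had 66.1 and 68.0 TPM in the SAFB RIP, against 0.739 and 16.1 TPM in the IgG RIP, a log2 fold change of 3.64 ± 1.12 that did not pass (limma adjusted p = 0.0626). With libraries of the same number treated as a block it passed (limma adjusted p = 0.00862). It stood at 1.996 without IgG RIP replicate 1 and at 5.29 without IgG RIP replicate 2. In those fits the spread came from the SAFB pair alone, so the distance between the IgG values did not enter it. Snord14c had 5.16 and 10.2 TPM in the SAFB RIP, against 24.2 and 0.787 TPM in the IgG RIP, and its groups overlapped (0.31 ± 1.34; limma adjusted p = 0.875). Its direction hung on the IgG libraries: it stood at 2.21 without IgG RIP replicate 1 and at -1.60 without IgG RIP replicate 2. Summed, Snord14c and Snord14d, which reads can hardly tell apart, held 5.19 and 10.2 TPM in the SAFB RIP, against 81.5 and 31.3 TPM in the IgG RIP. All 3 together held 71.3 and 78.2 TPM in the SAFB RIP and 82.2 and 47.4 TPM in the IgG RIP, and these groups overlapped. Thus the U14 total of the gene did not separate the groups, whereas Snord14d and Snord14e, in opposite directions, did. Some annotated Hspa8 transcripts have exons over these snoRNAs, so reads of host and snoRNA can be shared.

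**Figure D4:**
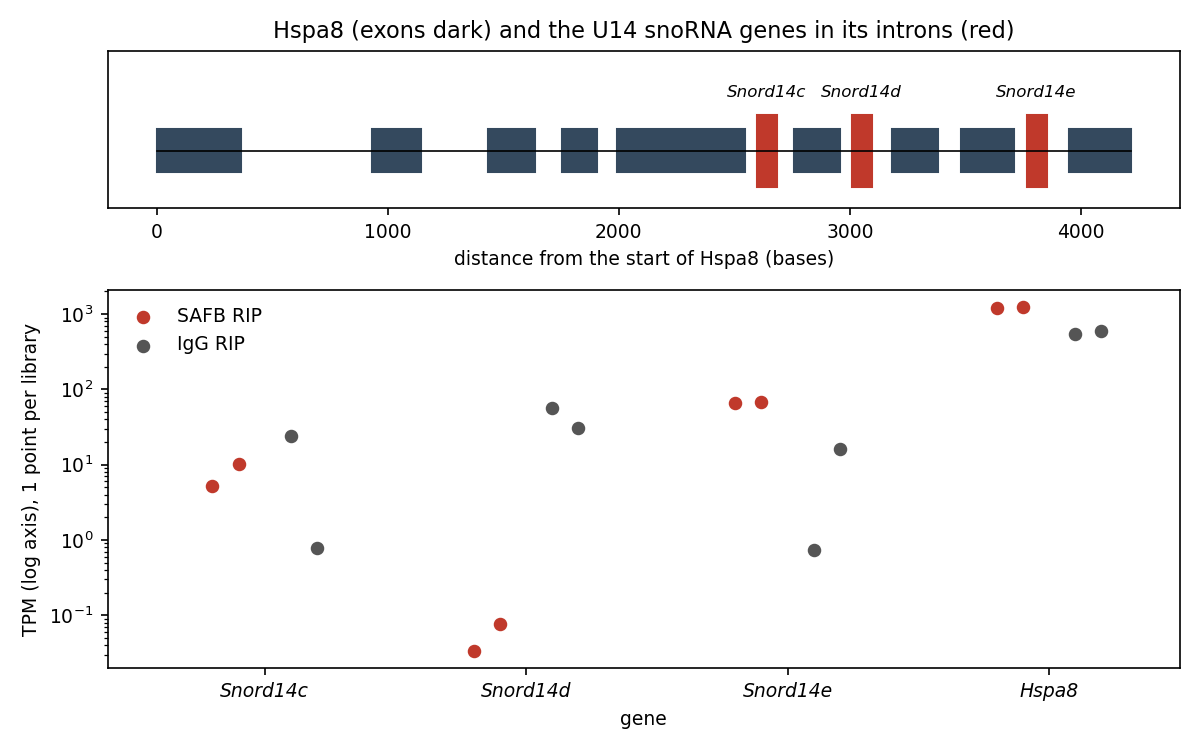
Top, exons of the principal Hspa8 transcript (dark) and the 3 snoRNA genes (red) by distance from the start of Hspa8 in bases; bottom, their TPM (log axis) in each library, SAFB RIP in red to the left of IgG RIP in grey. Snord14d lies under 0.1 TPM in both SAFB libraries and above 30 TPM in both IgG libraries, and Snord14e and Hspa8 lie higher in both SAFB libraries.

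The rest of the cytosolic and mitochondrial folding machinery moved about as genes in general did. Of 94 further genes of 8 lists, 85 were tested, of which 29 rose, 5 fell and 51 did not pass (limma). That is 34.1% higher and 5.88% lower, beside 29.8% and 8.3% of all genes, and their median log2 fold change was 0.41, beside 0.46. After median centring 15 were higher and 16 lower, that is 17.6% and 18.8%, beside 16.4% and 17.6% of all genes. Counts given below for single lists, as deposited or centred, are to be read beside these shares of all genes. With the GC trend removed their median was 0.50, beside 0.57 for all genes. Values given below for that alternative are to be read beside 0.57. With either SAFB library left out, nearly all calls among the 85 were lost, as were most calls over all genes. Some genes named next did not pass with all 4 libraries but did with an IgG library left out. Without IgG RIP replicate 2 these were Hsf2 and Hspb8 as higher and Hsf1, Hsf4, Hspa2 and Stub1 as lower. Without IgG RIP replicate 1 they were Cryab, Cct7 and Clpb. In those fits the spread came from the SAFB pair alone and more genes were called over all genes tested, so these passes add no support.

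Among 9 HSP70 exchange factors and cochaperones, 5 rose, 2 fell and 2 did not pass, with a median of 1.12, and after median centring 3 were higher and 3 lower. Bag1, a nucleotide exchange factor, had 271 and 241 TPM in the SAFB RIP, against 68.4 and 71.0 TPM in the IgG RIP, and St13, which encodes the HSP70-interacting protein Hip, had 278 and 252 TPM, against 75.7 and 85.7 TPM. Bag6, a factor for tail-anchored and misfolded proteins, fell by 1.002 ± 0.133 (limma adjusted p = 0.00994), but stood at -0.09 and did not pass with the GC trend removed. Stub1, the ubiquitin ligase CHIP, stood at -0.55 and did not pass. It passed as lower after median centring, at -1.01 (limma adjusted p = 0.0230), and stood at 0.38 without a call once the GC trend was removed. Among 20 HSP90 cochaperones, 7 rose, 1 fell and 12 did not pass, with a median of 0.41, and after median centring 5 were higher and 5 lower. Stip1, which bridges HSP70 and HSP90, rose by 1.03 ± 0.09 (limma adjusted p = 0.00561), and the immunophilins Fkbp4 and Fkbp5 rose by 0.69 and 0.59 as deposited but lost their calls once libraries were centred, while they stood at 1.35 and 0.77 and passed with the GC trend removed. Fkbp8, another immunophilin, fell by 0.86 on the log2 scale (limma adjusted p = 0.00660), and stood at 0.07 with the GC trend removed. In that fit Bag6, Stub1 and Fkbp8 still lay below the median of all genes, 0.57.

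Among 21 other J-domain genes tested, 8 rose, 1 fell and 12 did not pass, with a median of 0.69, and after median centring 3 were higher and 1 lower. Dnajb6 rose by 0.86 and Dnajc14 by 0.69, neither of which passed after median centring, and Dnajc7 at 0.22 and Dnajc13 at 0.90 did not pass. Dnajc7 passed as higher with the GC trend removed, at 0.33 (limma adjusted p = 0.0410), but lay below the 0.57 of all genes in that fit. Dnajc13 passed with the replicate block (limma adjusted p = 0.0260) and with 1 TPM required in every library (limma adjusted p = 0.0466). It stood at 1.33 without IgG RIP replicate 1 and at 0.47 without IgG RIP replicate 2. Of 5 heat shock factor genes, counted with the binding protein gene Hsbp1, 0 rose and 0 fell as deposited and 2 were lower after median centring. Hsf1, the factor that drives the stress-induced genes, had 33.3 and 34.1 TPM in the SAFB RIP, against 58.6 and 45.4 TPM in the IgG RIP, at -0.60 ± 0.18 (limma adjusted p = 0.0606). After median centring it was lower, at -1.06, and it stood at 0.22 with the GC trend removed. Hsf2 stood at 0.69, Hsf4 at -0.66 and Hsbp1 at -0.13, and none of these passed as deposited. Hsf4 was lower after median centring, at -1.12, and stood at 0.27 with the GC trend removed. Of 5 small heat shock protein genes tested, 1 fell and 4 did not pass, and after median centring 2 were lower. Hspb1, the mouse counterpart of the human HSP27 gene, had 33.9 and 38.8 TPM in the SAFB RIP, against 68.6 and 66.7 TPM in the IgG RIP, and fell by 0.88 on the log2 scale (limma adjusted p = 0.0142). With the GC trend removed, Hspb1, at 60.7% GC, stood at 0.04 and did not pass. Hsf1, Hsf4 and Hspb1 still lay below the median of all genes in that fit, 0.57. Hspb8 (0.20), Cryab (-0.40) and Hspb6 (-0.46) did not pass as deposited, and Cryab was lower after median centring, at -0.86.

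Of 5 other cytosolic HSP70 genes only 2 were tested. Hspa14, a ribosome-associated HSP70, rose by 1.48 ± 0.22 (limma adjusted p = 0.0127), and the testis-enriched Hspa2, at -0.15, did not pass. Hspa1l and Hspa12a stayed under 1 TPM in every library. Among 14 genes of the TRiC/CCT chaperonin and prefoldin, which fold actin and tubulin, 4 rose and 0 fell (28.6%, near the 29.8% of all genes), and after median centring 0 were higher and 2 lower. Cct6a rose by 0.60 and Cct2 by 0.48 as deposited, neither passed after median centring, and Cct5 (0.20) and Cct7 (0.19) did not pass. With the GC trend removed Cct7 passed as higher, at 0.63 (limma adjusted p = 0.0431), and Cct2 and Cct6a did not pass. The value of Cct7 was near the median of all genes in that fit, 0.57. Among 9 mitochondrial chaperone genes 4 rose and 0 fell, and after median centring 3 were higher and 1 lower. Hspd1, the HSP60 chaperonin gene, had 840 and 716 TPM in the SAFB RIP, against 104 and 145 TPM in the IgG RIP, and its log2 fold change of 2.65 ± 0.20 (limma adjusted p = 0.00468) exceeded that of each of the 10 cytosolic genes. Hspa9, the mitochondrial HSP70 gene, rose by 0.95, and Trap1 (-0.00) and Clpb (0.37) did not pass. Clpb passed with the GC trend removed, at 0.62 (limma adjusted p = 0.0172), also near the 0.57 of all genes.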

How the data were processed

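RIP-seq was made from 4 libraries, 2 per group. The authors deposited 1 table of TPM values. HISAT2, HTSeq, DESeq2, StringTie and mm10 are named in the submitters' processing notes, without roles. The tool behind the TPM values is not given in the sources used here. The 10 genes and all lists were chosen with earlier results of these data known. The table held 52197 entries. Entries sharing an identifier (14 entries, 6 identifiers) were summed. The 16647 genes reaching 1 TPM in 2 or more of the 4 libraries were tested on log2(TPM + 1), which understates changes of low genes, with limma 3.58.1 in R 4.3.3. The prior variance varied with abundance, and Benjamini-Hochberg adjustment ran over all genes tested. Coordinates and transcripts came from GENCODE release M21 (mm10), with 1 principal transcript per gene. Alternatives covered pseudocount, filter, scaling, variance trend, replicate block, single libraries left out, a GC trend (lowess) and added pseudogenes. The fit was tested on simulated data. Besides the 10 genes, the text names the up to 4 most abundant genes of each list, Hsf1, Hspb1, the snoRNAs within Hspa8 and genes overlapping a member.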

Additional observations from a re-analysis of the deposited data

How the results depend on the processing

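With libraries centred on their medians, 2736 genes were higher and 2935 lower in the SAFB RIP, with quantile normalization 2758 and 2986, and among protein-coding genes alone 2595 and 2335, against 4964 and 1382 as deposited. With the GC trend removed, which like the addition of pseudogenes was chosen with the values in view, 5488 were higher and 612 lower. Of the 10 chaperone genes, 2 were lower after centring, after quantile normalization and among protein-coding genes alone, and 1 (Hspa1b) was lower with at least 1 TPM required in all 4 libraries. In the order centring, quantile normalization, protein-coding genes alone, Hspa1a stood at -0.43, -0.93 and -0.19, the stress-induced median at -0.43, -0.77 and -0.19, and the constitutive median at 1.16, 1.31 and 1.32. With the GC trend removed the medians were 0.92 for stress-induced and 1.39 for constitutive genes, and their difference was -0.47. Both class medians lay above the 0.57 of the genes tested in that fit. That difference was -2.07 after quantile normalization. Leaving out Dnaja1 and Hspa4l gave a constitutive median of 1.08 and a difference of -1.05. Summing Hspa1a and Hspa1b gave a stress-induced median of 0.48 and a difference of -1.14. That median is the midpoint between Dnajb1 and Hsph1, and the sum itself stood at -0.87. Snord14c stood at -0.066 with a pseudocount of 5, at -0.15 after centring and at -0.26 after quantile normalization.

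Leaving out single libraries, where a lone library was assumed to vary like the other group, gave 767 to 7627 genes higher and 7 to 2566 lower, 0 to 7 chaperone genes higher and 0 to 1 lower. The stress-induced median and Hspa1a ran from -0.066 to 0.13, the constitutive median from 1.42 to 1.71, the difference from -1.58 to -1.43, and Snord14c from -1.60 to 2.21. Whether libraries of the same number belong together is not given in the labels. Deviations of same-numbered libraries from their group means correlated at -0.02. With 2 libraries per group both pairs give the same value, so it cannot decide the question. The replicate block gave 4797 genes higher and 1264 lower, and of the chaperone genes 7 higher and 0 lower. The replicate block changed no call among the 10 genes, and Snord14e and Dnajc13 passed under it (limma adjusted p = 0.00862 and 0.0260). The causes of these changes were not tested. The low Hspa1a values did not differ between the groups beyond the spread within each group. With 2 libraries per group and no read depth in TPM, a small difference would not be detectable.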
